A study of Xenopus tropicalis with 9 samples.

Results

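In osteoblasts captured by laser from the lower jaw of the western clawed frog (Xenopus tropicalis), 255 of 10336 deposited genes were above a low detection threshold in every library while staying under it in every chondrocyte library. The threshold was a deposited value of 9.52, which is 1 ppm (the share of a total times 1000000) of the mean library total. These members make up 2.47% of all genes in the table. They were chosen by the osteoblast and chondrocyte values themselves, so the difference between bone and cartilage is described here without a test.

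Osteoblasts secrete and mineralise the collagen-rich matrix of bone. The angulosplenial is a dermal bone of the frog lower jaw, and dermal bones form directly in connective tissue. The humerus is laid down first as cartilage, whose immature chondrocytes enlarge and alter their matrix as they mature before bone replaces them.

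All animals were wild type and untreated, at stage NF 57 and 22 to 24 days after fertilisation at 27 to 28 °C. There were 3 libraries of osteoblasts from the medial angulosplenial, 3 of mature chondrocytes from the humerus and 3 of immature chondrocytes from the humerus. Cell type and skeletal site changed together between bone and cartilage, so the part of each cannot be told apart. No label ties a library to an animal, and p-values therefore measure the spread between these libraries, which may be technical. Some numbers in the sample titles recur between groups, and their meaning is not stated. In bulk RNA of this kind, fewer cells of a type and less RNA per cell cannot be told apart either.

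The table names genes by Ensembl identifiers alone, and 0 of the 10336 identifiers could be paired with a symbol in the RefSeq gene table of UCB_Xtro_10.0. The labelled osteoblasts could therefore not be checked against bone markers, and the same held for osteoclast, blood, vessel, muscle, nerve and skin markers. The part of such neighbouring cells in the members was not tested. Members are described by their levels. Identifiers are printed for the 2 members whose lowest level among the osteoblast libraries was highest, and for a few members in the comparison of chondrocyte groups.

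Deposited totals ran from 7885947 to 10886339 in osteoblast, 7594328 to 14055110 in mature and 7854945 to 8860505 in immature libraries. The authors' values are scaled and rounded, and 1 read was worth an estimated 0.831 to 1.17 in osteoblast, 0.939 to 1.59 in mature and 0.732 to 0.894 in immature libraries. The threshold corresponded to about 8.16 to 11.5 reads in an osteoblast library, 5.97 to 10.1 in a mature and 10.6 to 13 in an immature one. Osteoblast replicate 1 listed 2231 genes at 0, against 1007 and 1132 in osteoblast replicates 2 and 3.

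The members were mostly of low to moderate abundance in bone. Averaged over the osteoblast libraries, the median member stood at 14.5 ppm, the middle 50% lay between 7.43 and 37.3 ppm, and the range was 1.27 to 1114 ppm. A level of 10 ppm or more in all 3 osteoblast libraries was reached by 63 members, 50 ppm by 12, and 100 ppm by 3. Among the 1000 most abundant genes of a library were 23 members in osteoblast replicate 1, 12 in replicate 2 and 28 in replicate 3, and 4 members were among them in all 3. The cut takes 1000 of all 10336 genes. Out of 255 members, the counts in replicates 1 and 3 were near that share, and the count in replicate 2 was below it. All genes include those under the threshold in bone, while every member is among the 5920 genes above it in all 3 osteoblast libraries. The share over those 5920 genes was not counted, so nearness to the share over all genes shows no trait of the members.

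Together the members took 1.44%, 0.525% and 1.01% of the deposited total in osteoblast replicates 1, 2 and 3, a mean of 0.992% ± 0.460 (SD, n = 3). Replicate 2 gave the lowest of these shares. In mature replicates 1, 2 and 3 the summed level was 39.1, 13.6 and 16.2 ppm, and in immature replicates 1, 2 and 3 it was 37.5, 35.9 and 31.5 ppm. The rule itself keeps the chondrocyte sums low. The 10 highest members of each library held 52.1% of the summed level in osteoblast replicate 1, 33.0% in replicate 2 and 42.6% in replicate 3.

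**Figure D1:**
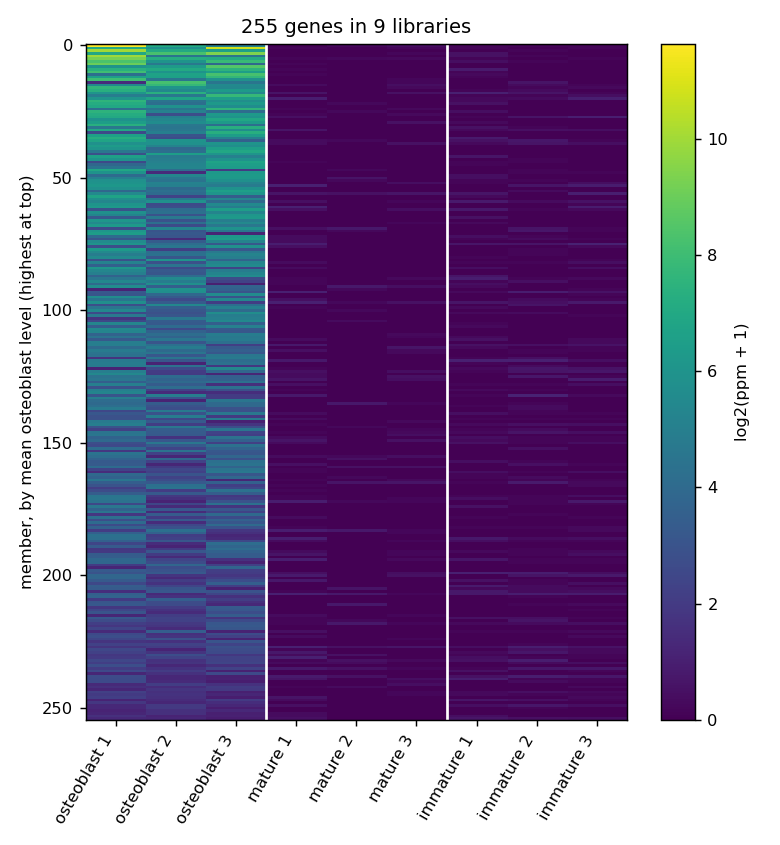
Level of each of the 255 members (rows, ordered by mean osteoblast level) in the 9 libraries (columns), as log2(ppm + 1) in colour. Levels in the 3 osteoblast columns run from 0.919 to 3174 ppm, while the 6 chondrocyte columns, kept low by the rule, reach at most 1.15 ppm. The lowest rows therefore differ little in colour between bone and cartilage.

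ENSXETG00000005013 had the highest minimum level of all members in the osteoblast libraries. It stood at 604, 146.5 and 139 ppm in osteoblast replicates 1, 2 and 3 (296 ± 266 ppm, SD, n = 3), against deposited values of 1, 2 and 3 in the mature and 1, 0 and 1 in the immature libraries. Osteoblast replicate 1 was far above the other two, which were nearly equal, and each chondrocyte value stands for few reads.

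ENSXETG00000014667 came next and was among the steadier members. Its levels were 168, 134 and 185 ppm in osteoblast replicates 1, 2 and 3 (162 ± 26.1 ppm, SD, n = 3). Its deposited values were 1, 0 and 0 in the mature and 7, 0 and 0 in the immature libraries, so 1 immature library held nearly all of its chondrocyte signal, still under the threshold.

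The members that followed differed in how even the bone libraries were. The third in this order stood at 125, 303 and 664 ppm in osteoblast replicates 1, 2 and 3, with chondrocyte values of at most 4. The fourth stood at 94.5, 97.1 and 208 ppm there, with a value of 1 in a single chondrocyte library. Replicate 3 was the highest for both. The fifth stood at 1010, 129 and 93.4 ppm, with replicate 1 far above the others, and was also listed with a value of 1 in a single chondrocyte library.

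By mean level the leading members rested largely on a single library. The member with the highest mean had 3174, 134 and 32.5 ppm in osteoblast replicates 1, 2 and 3, against a highest deposited value of 5 in the chondrocyte libraries. The member with the second highest mean had 136, 55.4 and 1773 ppm, against a highest value of 2. The libraries differed 97.6-fold and 32.0-fold for these genes, so their means of 1114 ± 1785 and 655 ± 969 ppm (SD, n = 3) say little about a typical osteoblast library. A different member was the most abundant in each of the 3 osteoblast libraries.

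Such spread was common among the members. The highest osteoblast library exceeded the lowest by a median of 5.27-fold, by more than 2-fold for 227 members, by more than 10-fold for 60 and by more than 50-fold for 5. At the extremes, 1 member had 3.80, 3.85 and 4.04 ppm in osteoblast replicates 1, 2 and 3, while another had 1.78, 297 and 22.1 ppm. A single library held over 80% of the summed osteoblast level for 26 members, namely replicate 1 for 16, replicate 2 for 2 and replicate 3 for 8. On the log2(value + 9.52) scale the median SD between osteoblast libraries was 1.10 for the members and 0.97 for all 9080 tested genes. A member has to exceed the threshold in all 3 libraries, which limits the low end of its spread. The tested genes need not do so. The fold counts were not made over other genes, so they show no trait of the members.

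The members were ordered only loosely alike in the 3 bone libraries. Across the 255 members, which are not independent replicates, Pearson correlations of log2(value + 9.52) were 0.47 between osteoblast replicates 2 and 1, 0.46 between 3 and 1, and 0.58 between 3 and 2. Over all 5920 genes above the threshold in every osteoblast library the corresponding values were 0.73, 0.73 and 0.76. Those genes span a wider range of levels. Replicate 1 was the highest of the bone libraries for 121 members, replicate 3 for 96 and replicate 2 for 38. This count was not made over other genes. The median log2 ratio of ppm + 1 was -0.80 for members and 0 for tested genes in replicate 2 over 1. It was -0.28 and 0 in replicate 3 over 1, and 0.55 and -0.13 in replicate 3 over 2. Tested genes need not exceed the threshold in every bone library, so the 2 sets are not on the same footing.

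**Figure D2:**
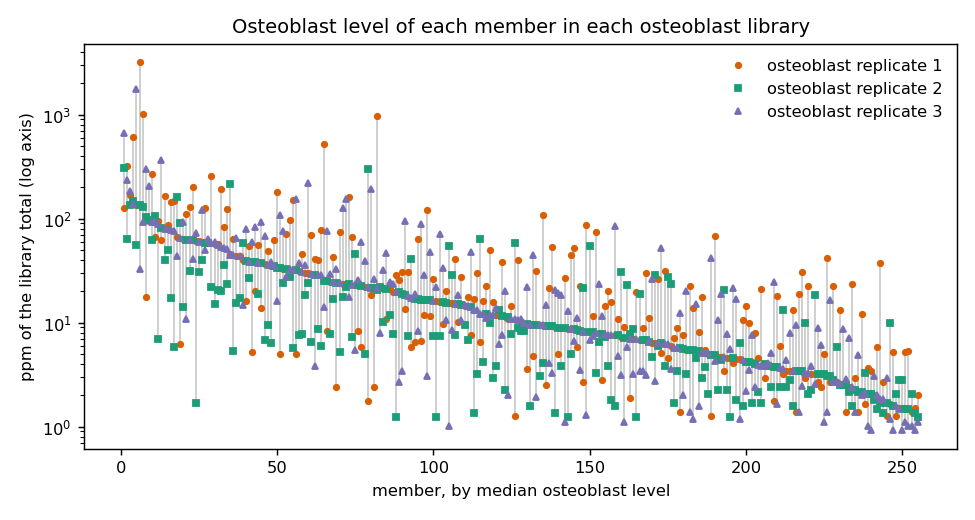
Level of each member in osteoblast replicates 1 (circles), 2 (squares) and 3 (triangles), in ppm of the library total on a log axis, with members ordered by their median. Grey lines join the lowest and highest library of a member, a median ratio of 5.27.

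In chondrocytes the members were not all absent. All 6 chondrocyte libraries listed 63 members at 0, which is 24.7% of them, and the other 192 had a value above 0 in at least 1. The description as osteoblast-only thus holds at the threshold and not at the level of single reads. Among all 1101 genes under the threshold in the 6 chondrocyte libraries, 328 were at 0 in all 6, so such zeros are not particular to the members. In 157 members at least 4 of the 6 chondrocyte libraries were at 0, and in 5 members none was. The highest chondrocyte value was at most 2 for 132 members and at most 4 for 189.

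The members at 0 in every chondrocyte library were not the most abundant in bone. Their median mean osteoblast level was 12.5 ppm, against 16.0 ppm for the other 192 members. Of the 63, 13 reached 10 ppm in all 3 osteoblast libraries, and of the other 192, 50 did so. The highest of the 63 by its minimum was at 61.8, 80.8 and 368 ppm in osteoblast replicates 1, 2 and 3 (170 ± 171 ppm, SD, n = 3). All bone libraries were thus far above the threshold for a gene that no chondrocyte library listed above 0. None of the 3 members at 100 ppm or more in all osteoblast libraries was at 0 in all chondrocyte libraries.

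Traces of the members were not spread evenly over the cartilage libraries. Mature replicates 1, 2 and 3 listed 155, 218 and 194 members at 0, and immature replicates 1, 2 and 3 listed 142, 139 and 154. Mature replicates 2 and 3 had the most zeros here and also among all genes, with 2014 and 1430 genes at 0 against 759 to 1026 in the other 4 chondrocyte libraries. In those libraries a single read was worth 1.59 in the deposited values, so that fewer reads fit under the threshold, and the part of this in the zeros was not tested.

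**Figure D3:**
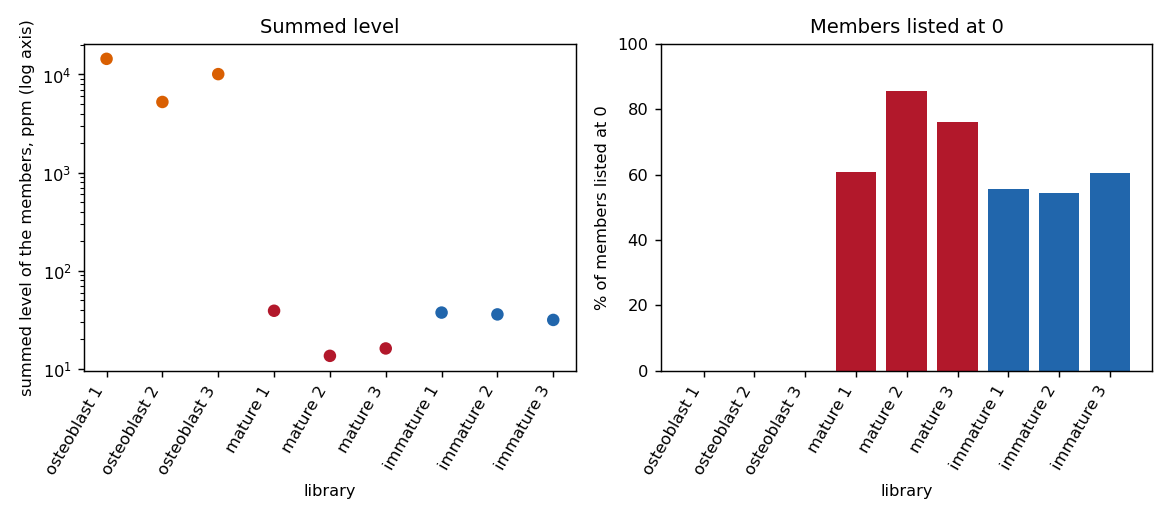
Left, summed level of the 255 members in each library, in ppm on a log axis. Right, percent of members listed at 0 in each library. Osteoblast sums lie between 5245 and 14431 ppm and chondrocyte sums between 13.6 and 39.1 ppm, and zeros are most frequent in mature replicates 2 and 3.

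Mature and immature chondrocytes were compared to see whether traces of the members changed with cartilage maturation, a contrast other than the one that chose them. The rule kept both groups under the threshold, so a difference of 1 or more on the log2(value + 9.52) scale could not occur. The 95% interval of a member's log2 difference had a median half-width of 1.33 in the limma fit of all 9 libraries, and all 255 members entered that fit through their osteoblast values. A call was therefore hardly possible for a member. The fit gave 0 members at an adjusted p under 0.05, where 0% of the 9080 tested genes passed, and 0 at an unadjusted p under 0.05, where 5.03% did. These counts follow from the rule and do not show that the traces were alike in both groups.

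Of the members, 59 had the higher mean in mature chondrocytes, 129 had the lower mean there and 67 had equal means. The 63 members at 0 in all 6 chondrocyte libraries are necessarily among the 67. The same split was not counted over all tested genes, so it shows no trait of the members. Mature replicates 2 and 3, with 2014 and 1430 of all genes at 0, enter the mature means, and their part was not tested. The median log2 difference, mature minus immature, was -0.0044 for the members and -0.09 for all tested genes, with a range of -0.54 to 0.56 for the members. Bringing every library to the same total moved the medians to -0.03 and -0.37. In a fit of only the 6 chondrocyte libraries, which holds no osteoblast spread, the median half-width of the members was 0.31. That fit gave 5 members (1.96%) at an unadjusted p under 0.05, where 6.97% of tested genes passed, and 0 at an adjusted p under 0.05. Here, too, all 255 members entered through their osteoblast values, and the rule capped their chondrocyte values. The 63 members at 0 in all 6 libraries have no spread there and could not be called. The half-width is thus no measure of precision for the members, and the lower share shows no trait of them.

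For ENSXETG00000005013 the log2 difference, mature minus immature, was 0.18, with an SE of 0.68 in the fit of all libraries and 0.13 in that of the 6 chondrocyte libraries. For ENSXETG00000014667 it was -0.22, with SEs of 0.63 and 0.24 in the same fits, and it turned to 0.048 without immature replicate 1, the library that held its value of 7. All libraries of one chondrocyte group lay above all of the other for few members. Mature chondrocytes were higher without overlap for 1 member, where 4.57% of tested genes were, and lower without overlap for 4 members, where 5.94% were. Many members were at 0 in several libraries of both groups, and such ties count as overlap. ENSXETG00000015673, the single member in the first class, had deposited values of 2, 2 and 5 in mature and 0, 0 and 0 in immature libraries. The members in the second class with the largest differences were ENSXETG00000033648, with 1, 0 and 0 in mature against 2, 5 and 4 in immature libraries, and ENSXETG00000025024, with 1, 0 and 0 against 6, 2 and 3. These 3 genes were chosen after their values were seen, and each value stands for a few reads.

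The edge of the rule lay at deposited values of 9 and 10. The lowest osteoblast value was exactly 10 in 8 members and at most 12 in 30, and the highest chondrocyte value was 8 or 9 in 25. Just outside, 24 genes met every condition except for a value of 8 or 9 in a single osteoblast library, and 33 did so except for a value of 10 to 12 in a single chondrocyte library.

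On the osteoblast side the list depended on agreement between bone libraries. There were 1101 genes under the threshold in all 6 chondrocyte libraries. Of these, 255 were above it in all 3 osteoblast libraries, 322 in 2 and 524 in 1. The members were 44.3% of the genes of this kind in osteoblast replicate 1, 36.7% in replicate 2 and 38.5% in replicate 3. Replicate 1 was the library most often missing, in 179 of the 322 genes, against 75 for replicate 2 and 68 for replicate 3. Over all genes, too, replicate 1 had the fewest at or above the threshold, 7069 against 8328 in replicate 2 and 8073 in replicate 3. Without replicate 1, 434 genes would meet the rule. The highest osteoblast library had a median level of 26.5 ppm for members, 7.24 ppm for genes above the threshold in 2 bone libraries and 5.20 ppm for those above it in 1. These classes are set by the same osteoblast values. The rule itself thus favours a higher level for members, and its part was not tested. Of the 524 genes above the threshold in a single bone library, 118 reached 10 ppm there.

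On the cartilage side, mature replicates 2 and 3 set most of the boundary. A single chondrocyte library kept 123 genes out of the list, and it was mature replicate 3 for 57, mature replicate 2 for 37 and mature replicate 1 for 3. The immature replicates 1, 2 and 3 did so for 15, 9 and 2 genes. The 255 members were 85.6% of the 298 genes above the threshold in all osteoblast and no mature library, and 60.7% of the 420 above it in all osteoblast and no immature library. Of the 165 genes among these 420 that are not members, 64 were above the threshold in mature replicates 2 and 3 and not in replicate 1, and 1 was above it in all 3 mature libraries. Mature replicates 2 and 3 are also the libraries in which the threshold was reached with the fewest reads, about 6, and the part of this was not tested. With the threshold set instead at the same number of estimated reads in every library, 279 genes met the rule, 240 of them members.

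**Figure D4:**
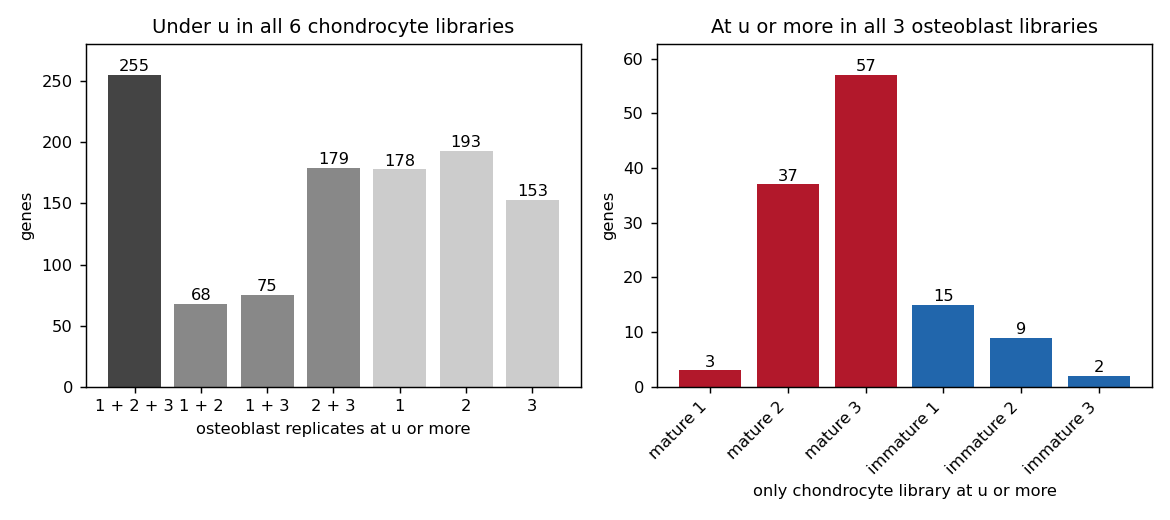
Left, number of genes under the threshold (u) in all 6 chondrocyte libraries, by the osteoblast replicates in which they reach it, 255 of them in all 3. Right, number of genes at or above it in all 3 osteoblast libraries and in exactly 1 chondrocyte library, by that library, with 37 and 57 for mature replicates 2 and 3.

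The edge counts on the osteoblast side can also be read as shares, with 1 osteoblast library left out of the choice at a time. In each case the genes that reach the threshold in the left-out library are the 255 members themselves. The others are the genes counted above as missing only that library. The shares thus restate those counts and are no fresh check of the members. The left-out library's total also enters the threshold. In addition, every deposited gene has a value of 12 or more somewhere. A gene low in cartilage can have it only in bone, possibly in the left-out library. Genes were chosen anew on the other 8 libraries, and the share that reached the threshold in the library left out was counted. It was 58.8% of 434 genes for osteoblast replicate 1, 77.3% of 330 for replicate 2 and 78.9% of 323 for replicate 3. For the other genes above the threshold in the same pair of osteoblast libraries, that is, those also above it in a chondrocyte library, the shares were 84.6%, 95.8% and 93.7%. For each of the 3 left-out libraries the share was lower among the genes under the threshold in all of cartilage, and this difference was not tested. The other genes could hold their value of 12 or more in cartilage, so the shares are not on the same footing. Among the genes chosen without osteoblast replicate 1, 120 were listed at 0 in it.

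The shares came closer together at higher levels, as they must when both near 100%. The threshold was only 1.21, 1.08 and 0.874 ppm in osteoblast replicates 1, 2 and 3, far below the levels used here. The genes under it in cartilage that reach it in the left-out library are again members, so this is no fresh check of them. Among genes at 10 ppm or more in both osteoblast libraries used, 94.1% of 85 genes under the threshold in all of cartilage reached the threshold in osteoblast replicate 1, against 96.8% of 3536 other genes. For replicate 2 the shares were 93.4% of 106 and 99.8% of 3409, and for replicate 3 they were 97.4% of 77 and 98.8% of 3572. At 50 ppm or more in both, all 14, 28 and 16 such genes reached the threshold when osteoblast replicate 1, 2 or 3 was left out. Of the other genes at that level, 99.8% of 1028, 100% of 1133 and 100% of 1197 did so. Nearly every gene at that level thus reached it, so these counts show no trait of the members.

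**Figure D5:**
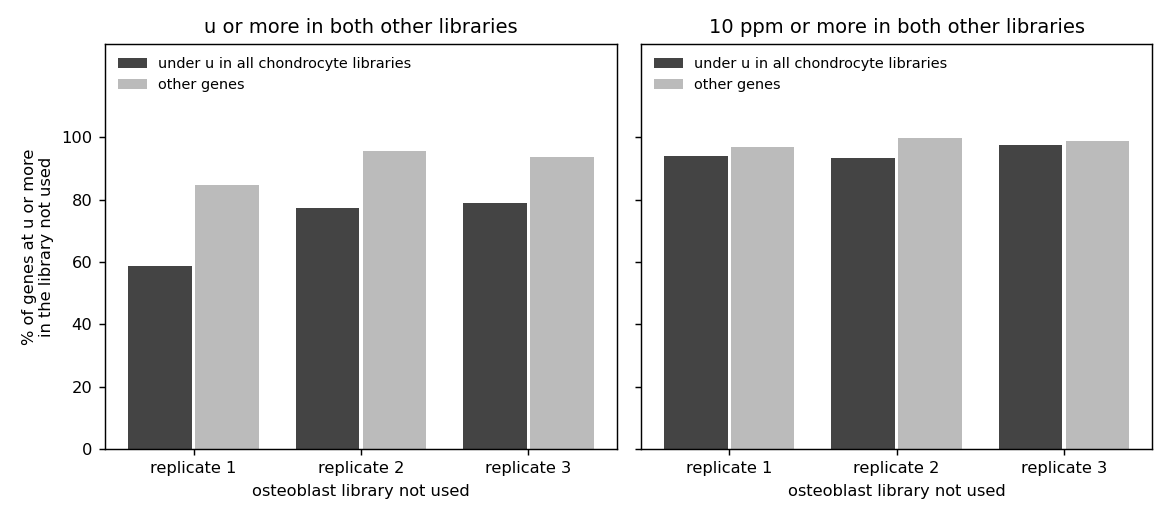
Percent of genes that reach the threshold (u) in the osteoblast library left out of the choice, for genes under it in all 6 chondrocyte libraries (dark) and for the other genes (light). Left, genes at or above the threshold in both remaining osteoblast libraries, where the dark bars stand at 58.8%, 77.3% and 78.9%, and right, genes at 10 ppm or more in both, where they stand at 94.1%, 93.4% and 97.4%.

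A left-out chondrocyte library was treated in the same way, and its shares likewise restate counts given above. The genes that reach the threshold in it are those that this library alone kept out of the list. The others are the 255 members. Of the genes chosen on the other 8 libraries, 1.16% of 258 reached the threshold in mature replicate 1, 12.7% of 292 in mature replicate 2 and 18.3% of 312 in mature replicate 3. In immature replicates 1, 2 and 3 the shares were 5.56% of 270, 3.41% of 264 and 0.778% of 257. For the other genes with a value of 12 or more in an osteoblast library and none of the remaining 5 chondrocyte libraries at the threshold, the shares were 1.17%, 10.6% and 12.7% in mature replicates 1, 2 and 3 and 4.08%, 6.21% and 1.17% in immature replicates 1, 2 and 3. Mature replicates 2 and 3 had the highest shares for both kinds of genes. The median level of the chosen genes that did reach the threshold was 2.10 ppm in mature replicate 2, where the threshold is 0.834 ppm, and 1.21 ppm in mature replicate 3, where it is 0.677 ppm.

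The share of members among bone genes was lower at higher abundance. Members were 6.84% of the 2807 genes above the threshold in all 3 osteoblast libraries with a lowest level under 10 ppm, 2.33% of the 2185 genes from 10 to 50 ppm, 2.01% of the 448 from 50 to 100 ppm and 0.625% of the 480 at 100 ppm or more. The threshold is fixed, so a gene more abundant in bone has to differ more from cartilage to be a member. The rule itself therefore favours a lower share at higher abundance, and its part was not tested. Of the 5920 genes above the threshold in every osteoblast library, 4909 were also above it in all 6 chondrocyte libraries.

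The mirrored rule, with all 6 chondrocyte libraries at or above the threshold and all 3 osteoblast libraries under it, gave 107 genes. More libraries have to reach the threshold there, so the numbers of genes are not on the same footing. In that list 24 genes, or 22.4%, were at 0 in all 3 osteoblast libraries, where 24.7% of the osteoblast members were at 0 in all 6 chondrocyte libraries. Fewer libraries have to be at 0 for that list, so these shares are not on the same footing either. Its genes took 0.112% ± 0.0126 of the deposited total in mature and 0.0903% ± 0.0110 in immature chondrocytes (SD, n = 3 each). Of these genes, 5 were at 10 ppm or more in all 6 chondrocyte libraries. The median gene of that list averaged 4.72 ppm over the chondrocyte libraries, and the highest averaged 80.3 ppm.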

How the data were processed

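Per the labels' protocols, RNA of laser-captured cells was amplified linearly in 1 round before library preparation. Per the submitters' processing notes, the authors used Trimmomatic 0.36, STAR 2.5.3a and edgeR. Their genome build, annotation, counting, gene filter and scaling are not given in the sources used here. As deposited, the values are a score: whole numbers that skip or repeat at regular intervals, as reads would after division by a library's own factor and rounding. No gene had a highest value under 12. The worth of 1 read was estimated from the spacing of values from 2 to 60 by likelihood, and it is least certain in osteoblast replicate 1. Exact reads were not recovered, so no count model was run.

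Members had a value of at least 9.52 in every osteoblast and a lower one in every chondrocyte library. Levels in ppm refer to each library's own total. Mature and immature chondrocytes were compared with limma 3.58.1 (R 4.3.3) on log2(value + 9.52) in 1 model of all 9 libraries with a variance trend, for genes at the threshold in at least 3 libraries. P-values were adjusted by the Benjamini-Hochberg method over all 9080 genes. The fit was also run on values simulated around each gene's mean over all libraries. They lacked the rule's cap on chondrocyte values, so that run says nothing about the members. The number of counts behind a low value is small, and amplification adds spread to rare transcripts. Members, lists and tests were chosen with earlier results of these data known. The rule for named genes took the 2 members with the highest minimum osteoblast level. The 20 marker lists prepared gave no result, since no identifier had a symbol. Alternatives covered the threshold, scaling, pseudocount, filter, model and each library left out. Python 3.11.15 with numpy 2.4.6, pandas 2.3.3 and matplotlib 3.10.9 was used.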

Additional observations from a re-analysis of the deposited data

How the results depend on the processing

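The 255 members became 235, 279 and 245 at 0.5, 2 and 5 times the threshold, of which 189, 189 and 111 were among the 255. With 1 ppm of each library's own total there were 280 genes, 239 of them members. Requiring only 2 of 3 osteoblast libraries gave 577 genes, 154 of them at 0 in all 6 chondrocyte libraries. At 5 times the threshold 25 genes were at 0 in all 6, and the summed share of the deposited osteoblast totals was 1.65%. Allowing 1 chondrocyte library above the threshold gave 378 genes with a share of 1.595%. Leaving out 1 library gave 257 to 434 genes, 69 to 111 of them at 0 in all remaining chondrocyte libraries, with a share of 0.884% to 1.36%. Fewer conditions can only lengthen such a list. At 0.5 times the threshold 83.6% of the genes chosen without osteoblast replicate 2 reached it there.

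Between mature and immature chondrocytes, library weights gave 468 called genes and leaving out 1 library gave 0 to 268, the highest without mature replicate 1. The cause of the 468 was not tested. The 0 called members in every setting follow largely from the rule, which keeps their chondrocyte values under the threshold, and show no stability. The log2 difference of ENSXETG00000014667 lay between -0.35 and 0.048 when 1 library was left out, the highest without immature replicate 1. Each pair of groups shares only 1 number in the sample titles, so the numbers cannot pair all samples. Their meaning is not stated, and whether libraries with the same number share an animal is not known. With these numbers as a random replicate block (correlation 0.193), 0 genes and 0 members were called. Tests on recovered reads were not made, since different reads round to the same value.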
